A study of Mus musculus with 6 samples.

Results

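The genes described here encode receptor chains for interleukins and colony-stimulating factors. They are 36 genes fixed by name, found by Ensembl identifier in the GENCODE M21 annotation of GRCm38, out of 54232 genes in the deposited tables. Monocytes were FACS sorted from the CNS of mixed bone marrow (BM) chimera mice at the peak of EAE, which models multiple sclerosis and follows immunization with a myelin antigen. Lethally irradiated GFP+ recipients had received a 1:1 mixture of WT (CD45.1) and Ifnar1-/- (CD45.2) BM, were immunized 6 to 7 weeks later, and were given 30000 IU of IFN-b each day. The 3 WT and the 3 Ifnar1-/- libraries therefore all came from IFN-b-treated mice, and no PBS-treated library was analysed here. Monocytes were gated as GFP- CD45+CD11b+Ly6ChiLy6G-, so GFP+ cells of the host fell outside the gate. The labels give no age for the mice. The study describes 3 chimera recipients that each carried WT and Ifnar1-/- BM together, and 3 monocyte samples per group. Mice were therefore most likely shared between groups. Neither the labels nor the study says that libraries of the same number came from the same mouse. The main test treated the libraries as independent, and a fit that blocks on the library number was an alternative. All p-values measure the spread between these libraries only.

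Many of these receptors, though not all, work as assemblies of a private chain that recognizes the cytokine and a shared chain that signals. IL-3, IL-5 and GM-CSF share the common beta chain, the cytokines of the IL-2 group share the common gamma chain, the IL-6 group shares gp130, and all of these pass their signal through JAK kinases and STAT factors. IL-1 and IL-18 receptors signal through MyD88 instead, and the receptors for M-CSF, G-CSF and GM-CSF set the growth, survival and activation of monocytes and granulocytes. In EAE, GM-CSF and IL-1 are known as cytokines through which T helper cells and monocytes act on each other.

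Library totals ranged from 4531782 to 7321380 expected counts, and a count of 3, taken as the floor of detection, was worth 0.427 to 0.638 normalized CPM (CPM computed with TMM scaling), a floor that covers counting error alone. The 8 monocyte markers summed to between 8156 and 9886 normalized CPM in the 6 libraries. Ly6c2, which encodes the sorted antigen, was higher in WT (log2 fold change 1.40, adjusted p = 0.00957 by the quasi-likelihood test of edgeR) and was the only marker of the 8 past both thresholds. The markers did not move one way, since Ccr2 was 648, 694 and 587 normalized CPM in WT, against 1269, 794 and 905 in Ifnar1-/- libraries (log2 fold change -0.62, unadjusted p = 0.00955, adjusted p = 0.143), and Lyz2 had a log2 fold change of -0.25. Ifnar1 transcript was 153, 126 and 111 normalized CPM across WT libraries 1 to 3, against 110, 102 and 109 across Ifnar1-/- libraries 1 to 3. Each WT value of Ifnar1 was above each Ifnar1-/- value, and the log2 fold change was 0.28 with an SE of 0.15 (adjusted p = 0.36). A count over the whole gene does not separate the deleted part from the rest of the transcript, so it does not check the labels. WT library 1 stood apart, since the non-coding RNA Rn7s2 took 27.8% of its TPM (a length-corrected level) against 7.36% to 11.2% in the others, and levels of different genes are therefore compared below as TPM rescaled to the same sum over protein-coding genes.

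The M-CSF receptor and the common beta chain had the highest levels of the family. Csf1r, the M-CSF receptor of the monocyte lineage, averaged 495 rescaled TPM over the 6 libraries and ranked 1 in every library, and Csf2rb, the common beta chain, averaged 379 and ranked 2 in every library. Il4ra, the signaling chain for IL-4 and IL-13, averaged 278 and ranked 3 throughout. Behind them Csf2ra (201), Il1r2 (198), Csf2rb2 (198) and Il2rg (184) exchanged ranks 4 to 7 from library to library, so their order was not distinguishable. Crlf2, a chain of the TSLP receptor, averaged 124 rescaled TPM, Csf3r, the G-CSF receptor, 68.2, Il7r, the IL-7 receptor alpha chain, 44.5, and Il3ra, the IL-3 receptor alpha chain, 24.3. The lowest tested members were Il2rb at 6.41, Il12rb2 at 5.49, Il20rb at 3.02, Il2ra at 2.25, Il1r1 at 2.09 and Il18r1 at 1.58 rescaled TPM. The range of every member over the 6 libraries overlapped that of the next one down. Overlapping ranges did not always mean that neighbors exchanged places within a library. Csf1r, Csf2rb and Il4ra kept their ranks in every library, Il2rg stayed above Crlf2, and Il12rb1 stayed above Il2rb.

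**Figure D1:**
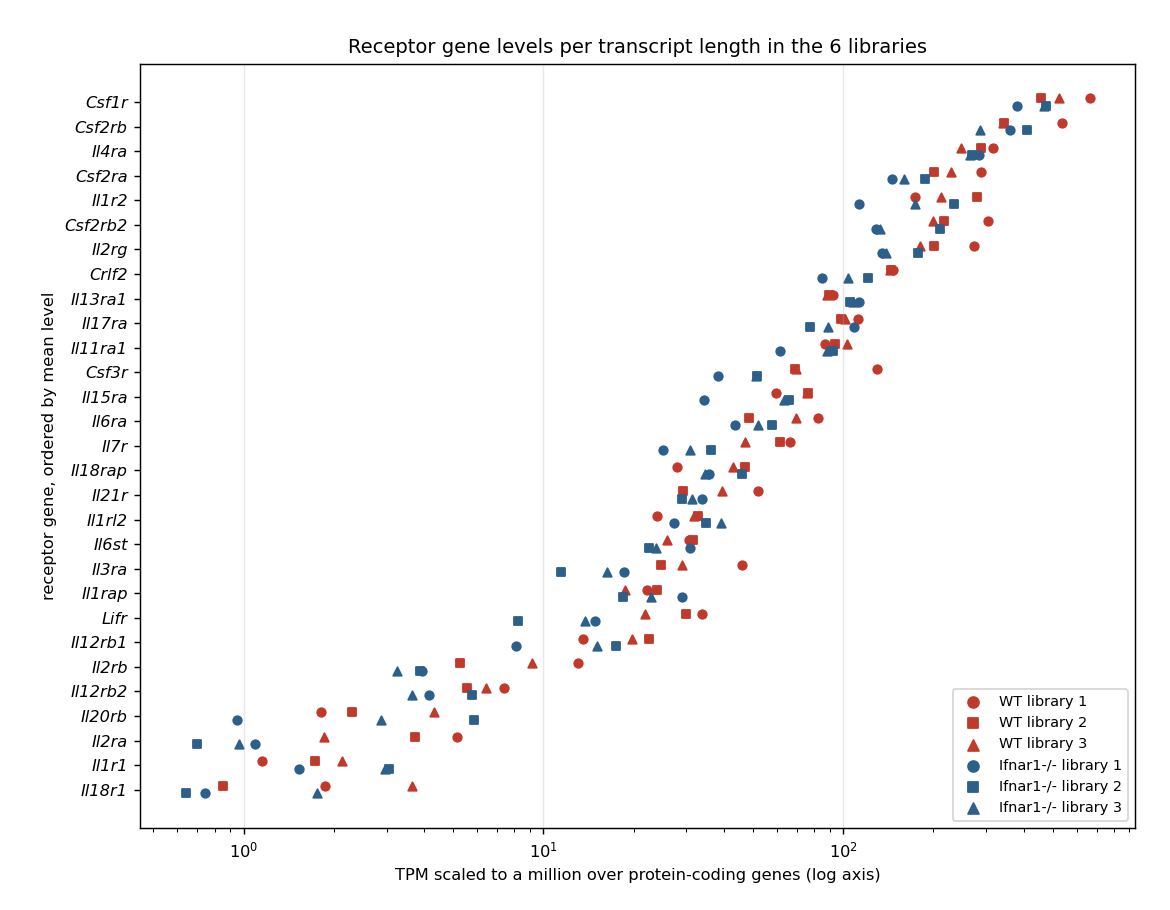
Level of each of the 29 tested receptor genes in the 6 libraries, as TPM rescaled to the same sum over protein-coding genes (log axis), ordered by the mean; red is WT, blue is Ifnar1-/-, and the symbol marks the library number. Csf1r at the top spans 379 to 664 and Il18r1 at the bottom 0.64 to 3.63.

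Of the family, 7 genes were too low to test. Il5ra, the eosinophil IL-5 receptor chain, Il9r, Osmr, the oncostatin M receptor, and Epor, the erythropoietin receptor, had 0 counts in all 6 libraries, which allows a level of up to 0.427 to 0.638 normalized CPM in a library. Il17rc had at most 2 counts in a library. Il1rl1, the IL-33 receptor, had 13, 2 and 9 counts across WT libraries 1 to 3, against 5, 2 and 1 across Ifnar1-/- libraries 1 to 3, and Il27ra had 11, 6 and 4 against 6, 1 and 8, both with overlapping groups. Markers of the cells in which several of these receptors are best known were also close to 0, with sums of at most 5.73 normalized CPM for 7 mast cell, basophil or eosinophil markers and at most 1.68 for 4 erythroid markers.

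Of the 29 tested receptor genes, 24 had a positive log2 fold change (WT over Ifnar1-/-) and the median was 0.31, while across all 11254 tested genes 48.2% were positive and the median was -0.01. Only 2 members, Il3ra and Il2rb, passed the thresholds for upregulation in WT, set at 0.05 for the adjusted p and 1.5-fold for the change, as did 1.67% of all tested genes. None was downregulated in WT by edgeR, against 0.462% of all tested genes, nor by DESeq2. At an unadjusted p of at most 0.05, 10 members were higher in WT (9.69% of all tested genes) and 1, Il13ra1, was lower (8.14%). In 8 members every WT library lay above every Ifnar1-/- library (11.1% of all tested genes) and in 1 every WT library lay below (12.2%). With the 26 members that had at least 10 counts in every library, 22 were positive and the median was 0.29.

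WT library 1 held the highest value of 15 of the 29 members, whereas it held the highest value of 24.2% of all tested genes. Without that library 24 of 29 members were still positive, with a median of 0.28, but 0 passed both thresholds. Among the Ifnar1-/- libraries, library 2 was highest in 17 members and library 1 lowest in 15. The matching shares of all tested genes were not counted, so no trait of the receptors is read from these counts. Offsets for GC content and transcript length lowered the members' median to 0.17, beside -0.04 for all tested genes, and left 21 of 29 positive and 0 past both thresholds.

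**Figure D2:**
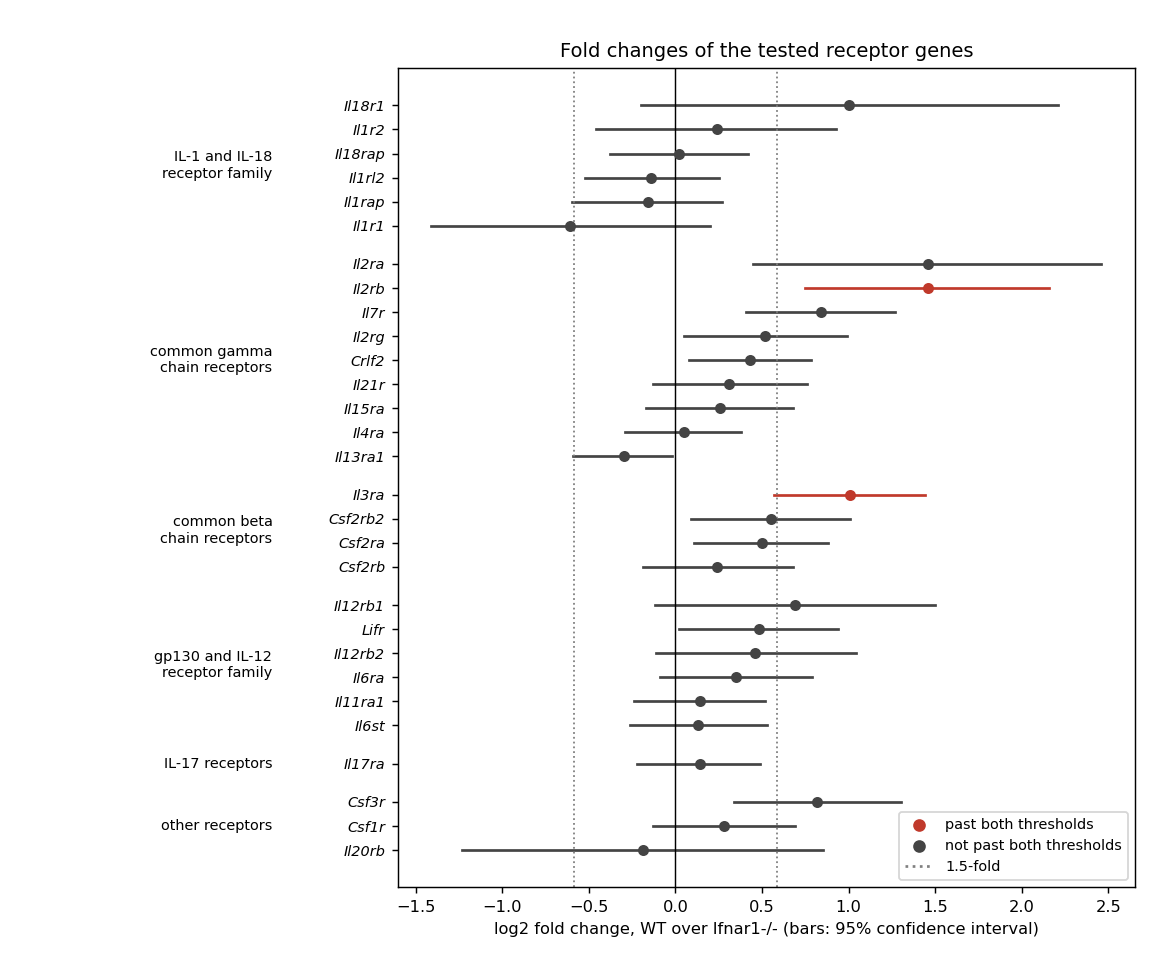
log2 fold change (WT over Ifnar1-/-) of the 29 tested receptor genes with the 95% confidence interval from the edgeR fit, grouped by receptor family; red marks the 2 genes past both thresholds and dotted lines the 1.5-fold limits. Most points lie to the right of 0, and the intervals of the IL-1 and IL-18 receptor family all include 0.

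The common beta chain receptors were those of IL-3, IL-5 and GM-CSF, and 4 of these 5 genes were tested, all with positive fold changes and a median of 0.52. Il3ra (ENSMUSG00000068758.8), which lies on the plus strand at chr14:14346275-14356011 in GRCm38, binds IL-3 and pairs with a beta chain. It measured 23.6, 16.6 and 19.7 normalized CPM across WT libraries 1 to 3, against 10.8, 9.66 and 9.38 across Ifnar1-/- libraries 1 to 3. The groups did not overlap, and the Ifnar1-/- libraries were close together. The mean was 20.0 ± 3.53 (SD, n = 3) for WT, compared with 9.96 ± 0.777 (SD, n = 3) for Ifnar1-/-, a log2 fold change of 1.01 (SE 0.20, 95% confidence interval 0.57 to 1.44, edgeR adjusted p = 0.0267), or 2.01-fold. Il3ra kept this direction in all 18 alternative fits (log2 fold change 0.66 to 1.14), but its adjusted p rose to 0.0949 without WT library 1, 0.0742 without WT library 3, and 0.0845, 0.0861 and 0.111 without Ifnar1-/- libraries 1, 2 and 3. With a replicate block the adjusted p of Il3ra was 0.038 in edgeR and 0.0814 in DESeq2. With GC and length offsets its log2 fold change was 0.67 (adjusted p = 0.124), and its longest transcript was 60.7% GC against a median of 48.9% for all tested genes.

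GM-CSF binds Csf2ra, its private alpha chain, which measured 234, 167 and 182 normalized CPM across WT libraries 1 to 3, against 121, 159 and 132 across Ifnar1-/- libraries 1 to 3. All WT values of Csf2ra lay above the Ifnar1-/- values by a narrow margin, and the log2 fold change was 0.50 (SE 0.17, unadjusted p = 0.0163, edgeR adjusted p = 0.174), or 0.25 with GC and length offsets (adjusted p = 0.467). Csf2rb, the chain shared by IL-3, IL-5 and GM-CSF, measured 963, 746 and 705 in WT, against 611, 847 and 581 in Ifnar1-/- libraries, with overlapping groups and a log2 fold change of 0.24 (adjusted p = 0.561, SE 0.20). Csf2rb2, which encodes the mouse beta chain specific to IL-3, measured 508, 383 and 353 in WT, against 232, 363 and 254 in Ifnar1-/- libraries, where only Ifnar1-/- library 2 reached into the WT range. Its log2 fold change was 0.55 (SE 0.21, unadjusted p = 0.0239, adjusted p = 0.205), and with the offsets it was 0.34 for Csf2rb2 and 0.01 for Csf2rb. Thus the IL-3 receptor alpha chain passed the test, and neither the GM-CSF alpha chain nor either beta chain did; the difference between these chains was not tested.

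Csf2rb and Csf2rb2 are neighbors on chromosome 15 and near-identical copies, so their counts depend in part on how reads from shared stretches were divided. The longest reading frames of their GENCODE transcripts were 2691 and 2637 bases, and 95.2% of 2631 aligned positions were identical, with a longest identical run of 242 bases. Of all 75-base words, the read length of the study, 7.15% of those in Csf2rb and 10.6% of those in Csf2rb2 were shared with another gene. Most words of either gene were therefore not shared. The first 90 coding bases of both are shown as an example of a stretch with few differences, with the 3 differing bases in capitals.
Csf2rb: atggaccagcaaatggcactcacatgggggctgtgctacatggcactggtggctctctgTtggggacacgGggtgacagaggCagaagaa
Csf2rb2: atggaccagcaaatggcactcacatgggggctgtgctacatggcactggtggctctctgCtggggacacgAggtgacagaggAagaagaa
The ratio of Csf2rb2 to Csf2rb, in normalized CPM, was 0.527, 0.513 and 0.501 across WT libraries 1 to 3, against 0.38, 0.429 and 0.437 across Ifnar1-/- libraries 1 to 3. The ratio was chosen after the values were seen. Its mean was 0.514 ± 0.0132 (SD, n = 3) for WT, compared with 0.415 ± 0.0309 (SD, n = 3) for Ifnar1-/-, and the groups did not overlap (two-sided exact permutation p = 0.1, the smallest that 3 libraries against 3 can give). Ratios of Csf2rb to Csf2ra, in TPM, overlapped between groups, at 1.69 ± 0.187 in WT and 2.16 ± 0.347 in Ifnar1-/- monocytes (SD, n = 3, exact permutation p = 0.2).

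The common gamma chain group, as listed here, comprised 10 genes, of which 9 were tested, 8 were positive, and 1 passed both thresholds. The median of the 9 was 0.43 on the log2 scale. The list also holds Il13ra1 and Crlf2, which pair with Il4ra and Il7r and not with the common gamma chain. Il13ra1 was the member that was not positive (-0.30), and Crlf2 (0.43) held the median. Il2rb (ENSMUSG00000068227.9), at chr15:78479256-78495271 on the minus strand, is the signaling chain that IL-2 and IL-15 share. It measured 18.1, 7.44 and 12.6 normalized CPM across WT libraries 1 to 3, against 5.04, 4.74 and 4.23 across Ifnar1-/- libraries 1 to 3. The groups did not overlap, but the WT libraries were spread widely and library 1 was the highest. The mean was 12.7 ± 5.32 (SD, n = 3) against 4.67 ± 0.410 (SD, n = 3), a log2 fold change of 1.46 (SE 0.32, 95% confidence interval 0.75 to 2.16, edgeR adjusted p = 0.0478), or 2.74-fold. The adjusted p of Il2rb was 0.138 without WT library 1, 0.109 without WT library 3, and 0.168, 0.108 and 0.156 without Ifnar1-/- libraries 1, 2 and 3, and it was 0.0642 with GC and length offsets (log2 fold change 1.22). With a replicate block the adjusted p of Il2rb was 0.0485 in edgeR and 0.0595 in DESeq2. Over 18 alternative fits the log2 fold change ranged from 0.85 to 1.73 and stayed positive.

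Il2ra, the alpha chain that raises affinity for IL-2, had a mean level below that of Il2rb with overlapping ranges, 0.698 to 5.14 against 3.25 to 13.0 rescaled TPM. It measured 8.82, 4.04 and 2.96 normalized CPM across WT libraries 1 to 3, against 2.29, 1.53 and 2.02 across Ifnar1-/- libraries 1 to 3, from 62 counts in the highest library to 9 in the lowest. The groups did not overlap, and WT library 1 was well above the rest. The log2 fold change was 1.46 (SE 0.45, unadjusted p = 0.00888, edgeR adjusted p = 0.137), and without WT library 1 it fell to 0.84 (adjusted p = 0.491). Il2rg, the common gamma chain itself, measured 185, 122 and 116 in WT, against 81.7, 120 and 93.6 in Ifnar1-/- libraries, with Ifnar1-/- library 2 inside the WT range and a log2 fold change of 0.52 (SE 0.21, unadjusted p = 0.0328, adjusted p = 0.233). Of its 75-base words, 26% are shared with the overlapping gene model Gm20489, which had 0 counts in every library. Il15ra, the IL-15 binding chain, was between 20.2 and 33.2 normalized CPM in all libraries, with a log2 fold change of 0.26.

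Il7r, best known in lymphocytes, measured 83.1, 75.7 and 53.5 normalized CPM across WT libraries 1 to 3, against 34.2, 47.6 and 37.1 across Ifnar1-/- libraries 1 to 3. The groups did not overlap. The log2 fold change was 0.84 (SE 0.19, 95% confidence interval 0.41 to 1.27, unadjusted p = 0.0014, edgeR adjusted p = 0.061), or 1.79-fold, just outside the threshold. Il7r passed both thresholds in 5 of 18 alternative fits, among them DESeq2 (adjusted p = 0.00918) and the fit without WT library 3 (adjusted p = 0.0265). Crlf2, which pairs with the IL-7 receptor alpha chain to bind TSLP, measured 81.4, 82 and 78.4 in WT, against 49.2, 71.5 and 59 in Ifnar1-/- libraries, without overlap, with a log2 fold change of 0.43 (SE 0.16, unadjusted p = 0.0209, adjusted p = 0.192), which GC and length offsets lowered to 0.10 (adjusted p = 0.828).

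Of the members with an unadjusted p of at most 0.05, Il13ra1 was the one lower in WT. It pairs with the IL-4 receptor alpha chain and measured 159, 158 and 150 normalized CPM across WT libraries 1 to 3, against 198, 189 and 189 across Ifnar1-/- libraries 1 to 3. Every WT library lay below every Ifnar1-/- library, and the SDs of the groups were 5.03 and 5.20. The log2 fold change of Il13ra1 was -0.30 (SE 0.13, 95% confidence interval -0.59 to -0.02, unadjusted p = 0.0405, edgeR adjusted p = 0.255), which was under the 1.5-fold limit. Its unadjusted p was above 0.05 in most alternative fits. These were RLE normalization, no count filter, removal of mitochondrial and ribosomal RNA genes, the replicate blocks, the GC and length offsets and the fits on log2(TPM + 1). The same held when each library of either group was left out in turn. With GC and length offsets its log2 fold change was -0.18 (edgeR adjusted p = 0.601). Il4ra was between 447 and 569 in all libraries with a log2 fold change of 0.05 (95% confidence interval -0.29 to 0.38), and Il21r was between 30.8 and 54.9 with a log2 fold change of 0.31.

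T and NK cells also express Il2ra, Il2rb, Il2rg and Il7r, and the summed markers of those cells were larger in WT, without overlap for NK cells and with overlap for T cells. The 12 T cell markers summed to 56.1, 23.2 and 52.7 normalized CPM across WT libraries 1 to 3, against 24.6, 9.32 and 11.2 across Ifnar1-/- libraries 1 to 3, with WT library 2 below Ifnar1-/- library 1. Of the 7 T cell markers tested, 7 were positive and 6 had an unadjusted p of at most 0.05, though 0 passed both thresholds, and none of the 12 was at 0 in all libraries. The 9 NK cell markers summed to 29.5, 28.9 and 51.3 in WT, against 15.1, 8.13 and 9.38 in Ifnar1-/- libraries, without overlap. Of the 4 tested NK cell markers, 4 were positive and 3 had an unadjusted p of at most 0.05 in the edgeR test. Klrk1 alone passed both thresholds, and Ncr1, not tested, had at most 2 counts. In a sorted bulk sample, fewer cells of a type and less RNA per cell cannot be told apart, and the part of these cells in the Il2rb, Il2ra and Il7r values was not tested. Sums of the other lists were at most 1.71 normalized CPM for B cells, 13.4 to 28.9 for conventional dendritic cells, 244 to 364 for microglia and, for endothelial or glial cells, 10.9 to 30.7 in WT against 3.05 to 6.61 in Ifnar1-/- libraries. Kdr, an endothelial receptor in the last list, was upregulated in WT, at 20.9, 7.01 and 6.12 normalized CPM against 1.22, 1.86 and 0.919 (log2 fold change 3.09, edgeR adjusted p = 0.0143). Kdr made up most of the WT sums of that list. Gfap, the other tested marker of the list, overlapped between groups, at 6.69, 2.76 and 2.76 against 0.764, 3.9 and 2.76. Cldn5 had at most 3 counts in a library and Cdh5 at most 14. These cells too were not tested for a part in the receptor values.

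**Figure D3:**
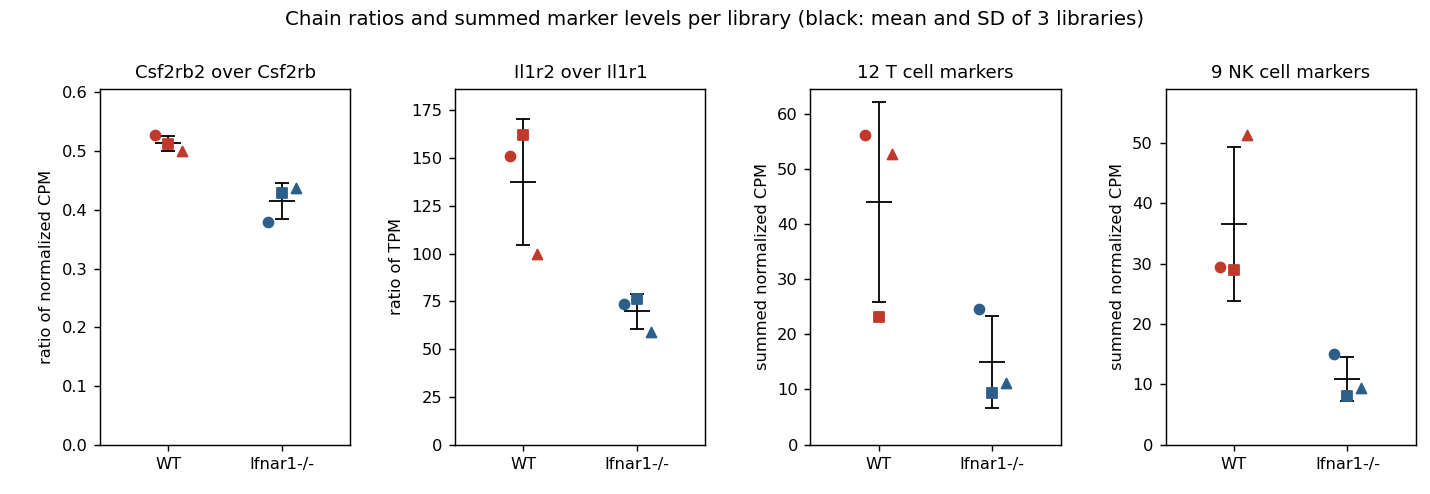
Left, ratios of Csf2rb2 to Csf2rb (normalized CPM) and of Il1r2 to Il1r1 (TPM) per library; right, summed normalized CPM of 12 T cell and 9 NK cell markers. Red is WT, blue is Ifnar1-/-, and the black marks are the mean and SD of 3 libraries; the groups do not overlap in the ratios and the NK cell sums, and they overlap in the T cell sums.

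Interleukin 1 signals through Il1r1 with the accessory chain Il1rap, and Il1r2 is a decoy that binds IL-1 without signaling. None of the 6 tested genes of the IL-1 and IL-18 receptor family passed both thresholds, and their median log2 fold change was -0.06. Il1r1 was low, at 2.70, 4.04 and 5.13 normalized CPM across WT libraries 1 to 3, against 3.66, 7.29 and 6.99 across Ifnar1-/- libraries 1 to 3, with overlapping groups and a log2 fold change of -0.61 (SE 0.36, 95% confidence interval -1.41 to 0.20, edgeR adjusted p = 0.416). Il1r2 measured 70, 138 and 99.3 in WT, against 50.2, 123 and 87.5 in Ifnar1-/- libraries, where library 2 was the highest of both groups and the log2 fold change was 0.24 (adjusted p = 0.74, SE 0.31). Il1rap measured 35.9, 38.3 and 27.4 in WT, against 47.3, 30.3 and 35.9 in Ifnar1-/- libraries, with a log2 fold change of -0.16 (adjusted p = 0.71, SE 0.20). The signs of Il1r2 and Il1rap were not stable when a library was left out. Il1r2 was -0.03 without WT library 2 or without Ifnar1-/- library 1, and Il1rap was 0.05 without Ifnar1-/- library 1. In both groups Il1r2 was lowest in library 1 and highest in library 2. With a replicate block its log2 fold change was 0.27 (SE 0.15, edgeR adjusted p = 0.359). With the block and GC and length offsets it was 0.36 (SE 0.15, edgeR adjusted p = 0.259).

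The decoy exceeded the signaling receptor in every library. The ratio of Il1r2 to Il1r1, in TPM and also chosen after the values were seen, was 151, 162 and 100 across WT libraries 1 to 3, against 73.9, 76.3 and 59.2 across Ifnar1-/- libraries 1 to 3, without overlap (138 ± 33.1 against 69.8 ± 9.24, SD, n = 3, exact permutation p = 0.1, the smallest possible). Its denominator rests on 19 to 43 counts of Il1r1 in a library. Both genes overlap unnamed gene models on the same strand. Gm37347 had 401 to 570 counts at Il1r2, and Gm38070 had 10 to 19 counts at Il1r1. Of the 75-base words, 0 of 1877 in Il1r2 and 0 of 6288 in Il1r1 were shared with another gene. The division of reads between each receptor and its overlapping model was not tested. The 6 genes Il1r2, Il1r1, Il1rl2, Il1rl1, Il18r1 and Il18rap lie together within 478 kb at chr1:40074079-40551705, yet their levels differed widely. Il18rap, the accessory chain of the IL-18 receptor, was between 36 and 56.1 normalized CPM (log2 fold change 0.02), whereas Il18r1, its binding chain, was between 0.678 and 3.95 (log2 fold change 1.00, 95% confidence interval -0.20 to 2.21, on 4 to 20 counts). Il1rl2, the IL-36 receptor, was between 33.9 and 50.4 normalized CPM with a log2 fold change of -0.14.

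Among the other colony-stimulating factor receptors, Csf3r measured 129, 82.5 and 92 normalized CPM across WT libraries 1 to 3, against 42.5, 67.8 and 62 across Ifnar1-/- libraries 1 to 3. The groups did not overlap. The log2 fold change of Csf3r was 0.82 (SE 0.22, 95% confidence interval 0.34 to 1.30, unadjusted p = 0.00328, edgeR adjusted p = 0.0895), or 1.77-fold, and it passed both thresholds in 2 of 18 alternative fits, DESeq2 (adjusted p = 0.0158) and the fit without a filter on low counts. Its adjusted p was 0.14 with a replicate block, 0.0595 with the block in DESeq2, and 0.0727 to 0.3 when each library was left out in turn. Csf3r is abundant in neutrophils, and 8 neutrophil markers summed to 261, 444 and 1370 normalized CPM in WT, against 487, 514 and 1219 in Ifnar1-/- libraries, highest in library 3 of both groups, whereas Csf3r was highest in WT library 1 and in Ifnar1-/- library 2. Ly6g, the antigen that the gate removes, had at most 4 counts, and the part of neutrophils in the Csf3r values was not tested. Csf1r measured 1212, 851 and 940 in WT, against 706, 908 and 865 in Ifnar1-/- libraries, with overlapping groups and a log2 fold change of 0.28 (adjusted p = 0.47, SE 0.19), or 0.03 with GC and length offsets.

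The gp130 and IL-12 receptor group had 6 of 8 genes tested, all positive, with 0 past both thresholds and a median of 0.41 on the log2 scale. Lifr, the LIF receptor, measured 34.9, 40.4 and 35.7 normalized CPM across WT libraries 1 to 3, against 30.7, 18 and 30.9 across Ifnar1-/- libraries 1 to 3, without overlap (log2 fold change 0.48, SE 0.21, unadjusted p = 0.0428, edgeR adjusted p = 0.261). The size of this change depended on the measure. On log2(TPM + 1) it was 1.06 (SE 0.29, limma adjusted p = 0.118), and 1.17 on TPM rescaled to protein-coding genes (SE 0.27, limma adjusted p = 0.108). Il6st, which encodes gp130, was between 56.1 and 80.3 (log2 fold change 0.13), and Il6ra, which binds IL-6, was between 94.2 and 169 (log2 fold change 0.35). Il12rb1, shared by IL-12 and IL-23, was between 5.96 and 28.3 (log2 fold change 0.69), and Il12rb2, the signaling chain of IL-12, was between 4.97 and 9.82 (log2 fold change 0.46) and overlaps Serbp1 on the other strand. Il11ra1 was between 19.7 and 28.9 (log2 fold change 0.14), with 35.9% of its 75-base words shared with other genes and several genes overlapping it, which makes its level uncertain. Il17ra, the IL-17 receptor, was between 134 and 192 normalized CPM (log2 fold change 0.14), and Il20rb was between 1.22 and 3.39 (log2 fold change -0.19).

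**Figure D4:**
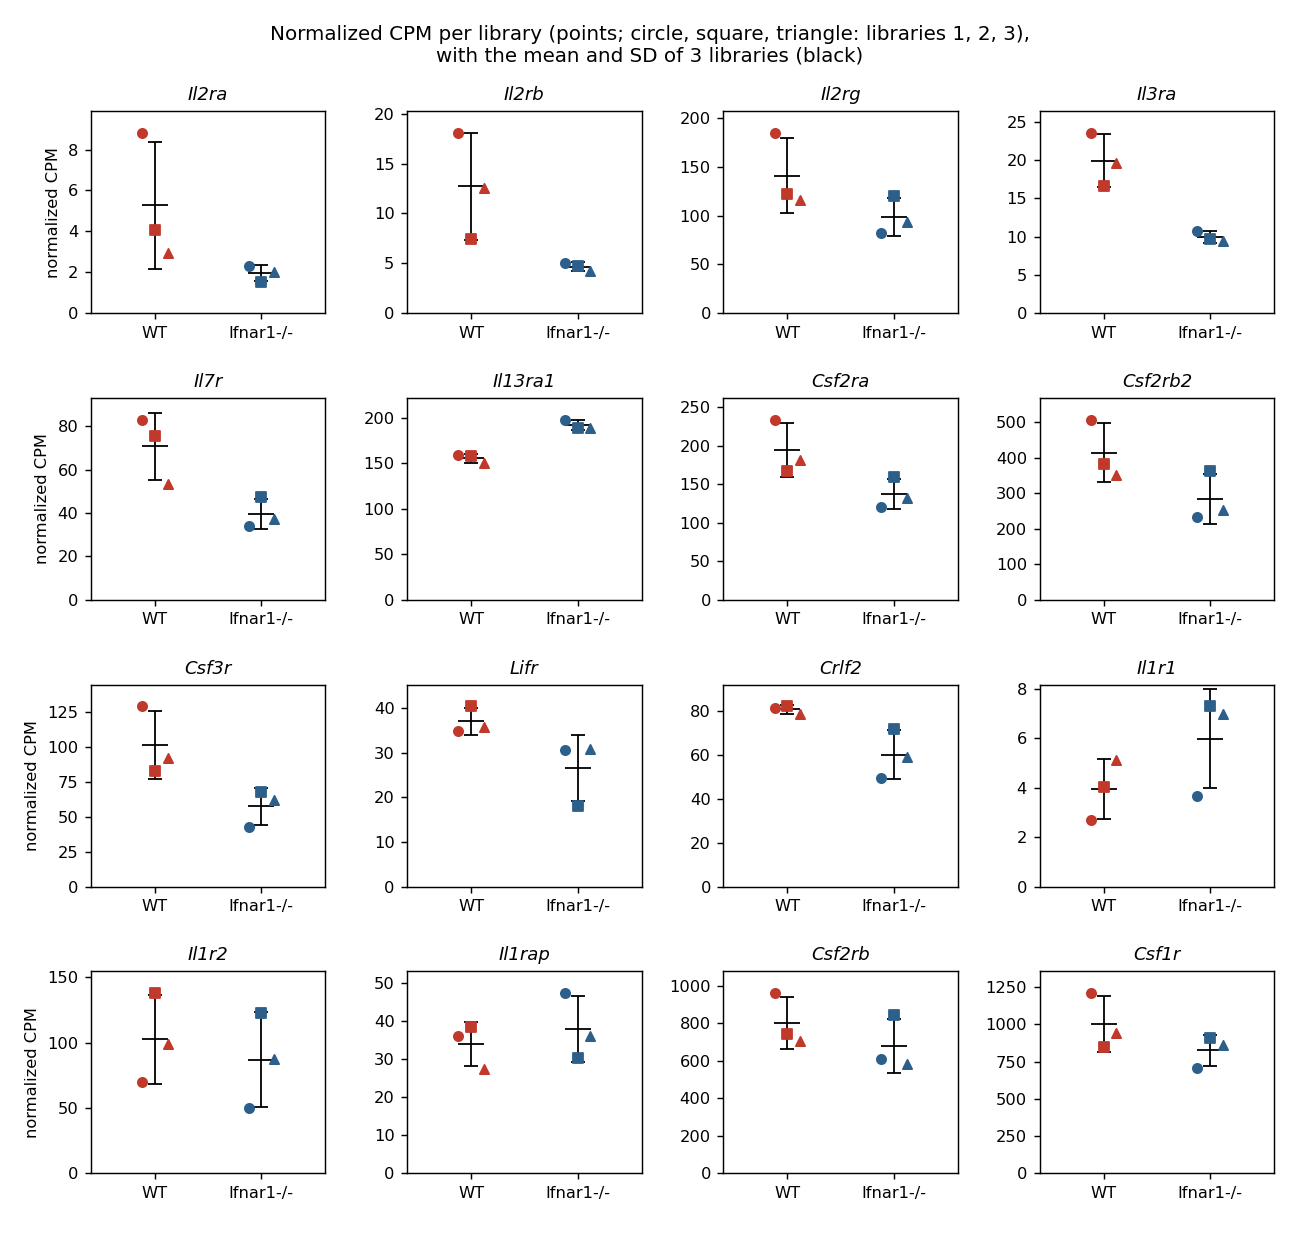
Normalized CPM per library of the 16 receptor genes described with a value in every library; red is WT, blue is Ifnar1-/-, circle, square and triangle are libraries 1, 2 and 3, and black marks are the mean and SD. The groups separate in panels such as Il3ra and Il2rb and, in the opposite direction, Il13ra1, and they overlap for Csf2rb, Csf1r and the IL-1 receptor chains.

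Promoter windows were searched for 3 motifs, bound by factors of the interferon response, of cytokine receptor signaling and of the myeloid lineage. RefSeq windows on GRCm38.p6 of 250 bases before to 50 bases after the start were at hand for 30 of the 36 members, in 37 windows, and were read on both strands. The interferon-stimulated response element, searched as GAAA, any 2 bases and GAAA, was in 3.44% of 32851 windows of the same length and in 1 of the 37 member windows (2.70%), that of Il1rap. The STAT site TTCNNNGAA was in 8.30% of all windows and in 5 member windows (13.5%), those of Csf2rb2, Il12rb2, Il18r1, Il1r2 and Il7r. The PU.1 site GAGGAAGT was in 3.20% of all windows and in 2 member windows (5.41%), those of Csf2rb2 and Il18rap. These matches are descriptions of letters in a window. Shown are the windows of Il3ra, which was upregulated in WT, of Il7r and Csf2rb2, which hold a STAT site, and of Il1rap, which holds the interferon-stimulated response element, with matches in capitals; the capitals near the 3′ end of Csf2rb2 are the PU.1 site on the other strand, and Il3ra has no match.
Il3ra, chr14:14346245-14346544, plus strand: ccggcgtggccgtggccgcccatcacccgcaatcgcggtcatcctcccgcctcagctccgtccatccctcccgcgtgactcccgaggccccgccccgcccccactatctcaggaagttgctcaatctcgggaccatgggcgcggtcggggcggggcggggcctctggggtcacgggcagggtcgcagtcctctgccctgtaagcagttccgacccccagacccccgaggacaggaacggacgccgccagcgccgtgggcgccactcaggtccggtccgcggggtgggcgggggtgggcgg
Il7r, chr15:9529827-9530126, minus strand: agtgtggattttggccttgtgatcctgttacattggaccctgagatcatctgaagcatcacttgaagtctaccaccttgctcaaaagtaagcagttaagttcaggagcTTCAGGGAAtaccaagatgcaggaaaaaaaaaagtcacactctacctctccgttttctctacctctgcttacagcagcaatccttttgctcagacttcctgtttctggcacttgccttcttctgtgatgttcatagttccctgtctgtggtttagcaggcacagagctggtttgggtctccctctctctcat
Csf2rb2, chr15:78305672-78305971, minus strand: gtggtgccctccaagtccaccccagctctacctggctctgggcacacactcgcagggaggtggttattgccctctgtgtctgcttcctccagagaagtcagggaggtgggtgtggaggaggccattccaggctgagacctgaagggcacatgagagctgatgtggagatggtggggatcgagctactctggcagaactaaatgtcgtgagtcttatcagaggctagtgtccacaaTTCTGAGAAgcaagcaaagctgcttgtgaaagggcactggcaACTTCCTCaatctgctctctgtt
Il1rap, chr16:26581455-26581754, plus strand: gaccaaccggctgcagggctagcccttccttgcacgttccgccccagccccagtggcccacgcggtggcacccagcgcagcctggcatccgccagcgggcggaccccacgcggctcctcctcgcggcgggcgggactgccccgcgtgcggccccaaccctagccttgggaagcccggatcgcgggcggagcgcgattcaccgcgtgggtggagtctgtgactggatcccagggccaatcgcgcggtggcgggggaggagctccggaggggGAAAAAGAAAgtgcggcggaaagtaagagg
Il1rap, the member with the interferon-stimulated response element, had the log2 fold change of -0.16 given above, and the members with a STAT site had log2 fold changes of 0.24 (Il1r2), 0.46 (Il12rb2), 0.55 (Csf2rb2), 0.84 (Il7r) and 1.00 (Il18r1), none past both thresholds.

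Most ligands of these receptors were too low to test, with 14 of 39 tested (median log2 fold change 0.22) and 1 upregulated in WT. The ligand was Il18, at 7.54, 9.56 and 6.32 normalized CPM across WT libraries 1 to 3, against 3.66, 2.37 and 2.39 across Ifnar1-/- libraries 1 to 3 (log2 fold change 1.45, edgeR adjusted p = 0.0401). Csf2, which encodes GM-CSF, had at most 2 counts in a library. Il15, which uses the IL-2 receptor beta chain, Csf1, the ligand of Csf1r, and Il1a and Il1b, the ligands of Il1r1, were named after their values were seen. Il15 had a log2 fold change of 1.93 (adjusted p = 0.0741) and Csf1 of 1.46 (adjusted p = 0.0863), and neither passed. Il1a measured 121, 106 and 91.4 normalized CPM in WT, against 150, 133 and 124 in Ifnar1-/- libraries, every WT value being lower (log2 fold change -0.35, unadjusted p = 0.0447, edgeR adjusted p = 0.265), and Il1b had a log2 fold change of -0.38 (adjusted p = 0.463). All 21 signal transducers were tested, with 0 past both thresholds, a median of 0.20 and the smallest p for Irs2 (0.47, adjusted p = 0.216) and Stat5b (0.31, adjusted p = 0.243). All 12 inhibitors were tested and positive, with 0 past both thresholds, a median of 0.27 and the smallest p for Sh2b3 (0.41, adjusted p = 0.242) and Il1rn, the IL-1 receptor antagonist (0.52, adjusted p = 0.322). Of 27 other genes of the receptor families, which include the soluble IL-18 binding protein Il18bp and Sigirr, both also counted among the inhibitors, 10 were tested with a median of 0.25 and 0 past both thresholds, and the smallest p were those of Il10ra (0.36, adjusted p = 0.195) and Ifngr2 (0.32, adjusted p = 0.28).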

How the data were processed

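RNA-seq of FACS-sorted CNS monocytes, 3 WT and 3 Ifnar1-/- libraries grouped by the deposited labels, was taken from gene-level tables. The authors mapped paired-end reads to GRCm38 and used RSEM 1.2.31 and STAR 2.6.0c, as the submitters' processing notes name them, to obtain an expected count and TPM per gene, which they deposited. The deposited expected counts are estimated and not normalized. RSEM divides reads that match several genes among them. The deposited TPM are scaled to the same total in each library by the authors. The strand setting of the counting is not given in the sources used here, and stranded library kits of different makers are named in the labels and in the paper.

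Expected counts were rounded to whole numbers. GENCODE M21 matched 54165 of 54232 identifiers and left 67 unmatched. WT was compared with Ifnar1-/- in edgeR 4.0.16 (R 4.3.3) with TMM normalization, filterByExpr (minimum count 10), the quasi-likelihood test and Benjamini-Hochberg adjustment over 11254 tested genes of 21265 with any count. A call needed an adjusted p no higher than 0.05 and a change of 1.5-fold or more. Ratios were compared by exact permutation tests. On simulated counts of the 11254 genes in 5 runs of this comparison, 56.4% of 2-fold and 96% of 4-fold changes were recovered, and 8.16% of calls were false. Members and lists were chosen with earlier results of these data known, so no list was tested. Genes with values in every library were the called members, those with an unadjusted p of at most 0.05, and the IL-1 and GM-CSF receptor chains with Csf1r and Csf3r. From the lists of ligands, signal transducers, inhibitors and other receptors, called genes or, with none, the 2 of smallest p were named, and 1 listed receptor, Il11ra2, was not used because its name has several identifiers; markers were named with their values known. Alternatives were DESeq2 1.42.0, limma-voom (limma 3.58.1), RLE normalization, testing without the filter or with a minimum of 10 counts per library, removal of mitochondrial and ribosomal RNA genes, adjusted p alone, a replicate block, the block with DESeq2, GC and length offsets, limma on log2(TPM + 1) and leaving out each library. Limma on log2(TPM + 1) rescaled to protein-coding genes was added after seeing the data.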

Additional observations from a re-analysis of the deposited data

How the results depend on the processing

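The counts of calls depended on the fit more than the directions did. Against 2 receptor genes upregulated in WT, DESeq2 called 4 (with Csf3r and Il7r), no filter on low counts 6 (with Csf3r, Il7r, Il12rb1 and Il2ra), limma-voom 1 (Il3ra), the replicate block with DESeq2 1 (Il7r), and GC and length offsets and both fits on log2(TPM + 1), one rescaled to protein-coding genes, 0. Leaving out each library in turn gave 0 to 2, with 0 without WT library 1 or any Ifnar1-/- library, 1 without WT library 3 and 2 without WT library 2. No receptor gene was downregulated in any fit. Over all genes, 188 were upregulated and 52 downregulated; these counts were 318 and 106 with DESeq2, 610 and 262 without a filter, 112 and 16 on log2(TPM + 1), and 18 downregulated on the rescaled TPM. Leaving out each library gave 110 to 204 upregulated and 7 to 41 downregulated genes.

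Same-numbered libraries deviated from their group means with correlations of 0.0906, 0.0278 and 0.275 over all tested genes. WT library 1 correlated slightly more with Ifnar1-/- library 2 (0.092). With 3 libraries per group, these correlations cannot decide whether the numbers pair the samples, and they do not speak against shared mice. The replicate block gave 182 upregulated and 38 downregulated genes and called the same 2 receptors, Il3ra and Il2rb; with GC and length offsets it gave 89 downregulated genes and called 2 receptors, Il2rb and Il7r. For the 16 named receptors and 18 alternatives (17 for Il2ra, which has fewer than 10 counts in a library), 3 values changed sign, namely Il1r2 without WT library 2 (-0.03) and without Ifnar1-/- library 1 (-0.03) and Il1rap without Ifnar1-/- library 1 (0.05). Leaving out each library moved Il1r2 between -0.03 and 0.58 and Il1rap between -0.28 and 0.05 on the log2 scale. The median of the members stayed positive in every fit, from 0.16 to 0.46, with 21 to 25 of 29 members positive where 29 were fitted. Depth limits the low members, since Il2ra, Il1r1 and Il18r1 rest on 4 to 62 counts in a library. The cause of the lost calls was not tested; fits without a library have fewer samples.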
